A study of Mus musculus with 45 samples.

Results

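Ppy, the gene of pancreatic polypeptide, and Pyy, the gene of peptide YY, are described here in bulk RNA sequencing of mouse pancreatic islets. They were taken from the deposited matrices by symbol and are 2 of the 22904 genes listed. Polyadenylated RNA was sequenced from islets of Langerhans in 45 libraries from 3 inbred strains of mice. NZO/HlLtJ is an obese, diabetes-prone strain, CAST/EiJ is a wild-derived strain and C57BL/6J is the usual laboratory strain; all mice were wild type. Males and females received either a 44% fat diet, high in sugar, or a 10% fat control diet, both with fiber, from week 6 of age, and islets were collected at week 16. The NZO/HlLtJ groups were males on 44% fat (n = 3), males on 10% fat (n = 3), females on 44% fat (n = 4) and females on 10% fat (n = 4). The CAST/EiJ groups were males on 44% fat (n = 4), males on 10% fat (n = 3), females on 44% fat (n = 4) and females on 10% fat (n = 4). The C57BL/6J groups held 4 libraries for each sex and diet. A strain is 1 inbred genotype, so a strain difference is one between these inbred lines.

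Pancreatic polypeptide, peptide YY and neuropeptide Y make up the PP-fold family, peptides of similar hairpin shape that are cut from a longer precursor and amidated at the end. Pancreatic polypeptide is the hormone of the gamma (PP) cell of the islet, is released after meals through vagal input and restrains pancreatic secretion and food intake. Peptide YY is best known as a gut hormone of L cells that slows transit and lowers appetite, but in the mouse it is also made in islet endocrine cells, and its gene lies next to Ppy. Both act on receptors of the neuropeptide Y family.

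The genes lie in tandem on chromosome 11, and the stretch that encodes their mature peptides shows how far the pair has diverged. In GRCm38, Ppy occupies chr11:102099930-102101319 and Pyy chr11:102106676-102107832, both on the minus strand with 5356 bases between them; Npy, the third family member, lies on chromosome 6. The 108 coding bases (36 codons) before the first Gly-Lys-Arg codons, the cleavage and amidation signal, are given 5′ to 3′ from the GENCODE transcripts, with capitals in Ppy and Pyy where the 2 genes differ and in Npy where it differs from Pyy.
Ppy: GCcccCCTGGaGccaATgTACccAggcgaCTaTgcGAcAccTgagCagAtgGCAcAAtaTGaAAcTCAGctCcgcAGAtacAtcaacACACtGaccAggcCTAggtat
Pyy: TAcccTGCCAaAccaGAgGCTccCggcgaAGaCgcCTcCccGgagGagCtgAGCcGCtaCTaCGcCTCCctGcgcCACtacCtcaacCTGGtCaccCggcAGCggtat
Npy: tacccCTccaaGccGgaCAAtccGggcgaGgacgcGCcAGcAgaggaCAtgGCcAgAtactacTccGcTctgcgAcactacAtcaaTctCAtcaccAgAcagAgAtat
Ppy and Pyy were identical at 58 of 108 bases (53.7%) and at 16 of 36 encoded residues. Pyy was closer to Npy, with 76 identical bases (70.4%) and 24 identical residues, than Ppy was, with 61 identical bases (56.5%) and 18 identical residues.

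The promoters are shown because the 2 transcripts varied together across libraries. The windows hold the 250 bases before each start in the RefSeq promoter table (GRCm38.p6, minus strand, 5′ to 3′), with motif matches in capitals; both genes were found in the table, Ppy with 1 entry and Pyy with 2, of which the start matching the annotated gene is given.
Ppy, chr11:102101320-102101569: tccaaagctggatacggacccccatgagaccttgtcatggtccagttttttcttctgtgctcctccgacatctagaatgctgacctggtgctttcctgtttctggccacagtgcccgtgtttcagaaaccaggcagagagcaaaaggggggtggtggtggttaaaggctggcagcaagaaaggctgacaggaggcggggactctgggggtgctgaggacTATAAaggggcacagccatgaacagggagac
Pyy, chr11:102107833-102108082: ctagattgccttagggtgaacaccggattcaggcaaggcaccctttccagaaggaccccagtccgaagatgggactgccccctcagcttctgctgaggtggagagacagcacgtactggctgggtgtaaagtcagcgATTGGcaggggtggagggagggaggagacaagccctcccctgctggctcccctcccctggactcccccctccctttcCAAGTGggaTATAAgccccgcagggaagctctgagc
Both windows held TATAA, 31 bases before the start in Ppy and 27 bases before it in Pyy; on either strand, this motif was in 22.8% of the 32817 windows of 250 bases in the table. CANNTG, the E-box, was in the Pyy window, 36 bases before the start, and in 66.2% of all windows. CCAAT was in the Pyy window on the strand opposite to the one printed, where it reads ATTGG, 113 bases before the start. It was in 33.8% of all windows. TAATTA, a homeodomain core motif, in 4.8% of all windows, and GGGCGG, in 32.7%, were in neither. The motifs searched do not overlap each other in these windows, and a match is a description of letters only.

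The total of estimated counts was 57.2 to 110 M per library, with a median of 84.42 M. Ppy had 14627 to 468341 counts per library and Pyy 22844 to 215289, which left counting error small beside the spread between libraries. Values below are CPM, counts relative to the library's TMM-scaled total, unless said otherwise, and differences are on the log2 scale with their SE. Male libraries had at most 15.4 CPM of Xist, against 531 to 1938 CPM in female libraries, in keeping with the labelled sexes. The sample codes fall into 3 number series (76, 80 and 89) of 14, 16 and 15 libraries, whose meaning the labels do not give. Transcripts otherwise confined to another strain stood at 1.91% to 10.1% of their level in that strain in 5 libraries, which were CAST/EiJ females on 44% fat 1, 2 and 4, C57BL/6J female on 44% fat 2 and NZO/HlLtJ male on 44% fat 3; the other libraries reached at most 0.832%. Summed acinar markers, the digestive enzymes of the exocrine pancreas, ran from 14538 to 148903 CPM in NZO/HlLtJ, 394 to 555286 CPM in CAST/EiJ and 1589 to 282140 CPM in C57BL/6J libraries. Islet hormone transcripts were present in every library, with Gcg, the glucagon gene, at 6237 CPM or more. The labels do not tie libraries to single animals, and the p-values therefore refer to the spread between these samples, which may be technical in part.

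Ppy was the 45th and Pyy the 77th most abundant of 20306 tested genes by mean CPM, at 1919 and 979 CPM. Per kilobase of transcript (500 bases for Ppy, 555 for Pyy), Ppy had medians of 2990 CPM per kb in NZO/HlLtJ, 2732 in CAST/EiJ and 5870.2 in C57BL/6J. On the same scale Pyy had 1438, 1452 and 2427 in those strains. Gcg was higher than both, at 12196, 24268 and 25397, and Sst, the somatostatin gene of delta cells, lay between the levels of the pair in NZO/HlLtJ and C57BL/6J and just above Ppy in CAST/EiJ, at 2034, 2807 and 4370.3. Of the summed counts of Gcg, Sst, Ppy, Pyy and Ghrl, the ghrelin gene, the group medians of Ppy ran from 2.58% in CAST/EiJ females on 10% fat to 14.3% in NZO/HlLtJ males on 10% fat, and those of Pyy from 1.91% to 5.52% in the same groups.

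In NZO/HlLtJ males, Ppy was at 1111, 2469 and 2397 CPM on 44% fat and at 1358, 2015 and 1460.0 CPM on 10% fat. In NZO/HlLtJ females it was at 834, 1077, 1234 and 1336 CPM on 44% fat and at 3020.1, 2030.3, 1530.4 and 1699 CPM on 10% fat. In females the highest 44% fat library (1336 CPM) lay below the lowest 10% fat library (1530.4 CPM). In males the 44% fat group held both the lowest and the 2 highest libraries. Pyy in NZO/HlLtJ males was at 751, 987 and 1057 CPM on 44% fat and at 471, 673 and 812 CPM on 10% fat. In NZO/HlLtJ females Pyy was at 559.8, 657, 808 and 744 CPM on 44% fat and at 1234, 1085, 788 and 1059 CPM on 10% fat. The female groups overlapped by a single 10% fat library.

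In CAST/EiJ males, Ppy was at 326, 686, 1092 and 1577 CPM on 44% fat and at 1628, 2197 and 707 CPM on 10% fat. In CAST/EiJ females it was at 159, 2028, 1366 and 1650.0 CPM on 44% fat and at 493, 1771, 1770.1 and 708 CPM on 10% fat. Female 4 on 10% fat had the lowest TMM factor of all libraries, 0.4856. Relative to its unscaled total it had 344 CPM of Ppy and 234 CPM of Pyy. CAST/EiJ held the libraries with the least Ppy of all, the diet groups overlapped in both sexes, and low libraries were found on both diets. Pyy in CAST/EiJ males was at 305, 489.9, 672 and 841 CPM on 44% fat and at 910.5, 1109 and 484 CPM on 10% fat. In CAST/EiJ females Pyy was at 270.3, 1091, 806 and 823 CPM on 44% fat and at 460.1, 995, 1402 and 483 CPM on 10% fat. The first 44% fat female was the lowest library of all for both genes and the one with the most transcripts of another strain.

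In C57BL/6J males, Ppy was at 899.6, 3217, 4051 and 1884 CPM on 44% fat and at 1845, 4406, 4607 and 1053 CPM on 10% fat. In C57BL/6J females it was at 4151, 2767, 3283 and 3125 CPM on 44% fat and at 1961, 2913, 1514 and 2957 CPM on 10% fat. The male groups were split into low and high libraries on both diets, and the female groups overlapped. Pyy in C57BL/6J males was at 909, 1200.4, 1521 and 1016 CPM on 44% fat and at 944, 1955, 1603 and 929.6 CPM on 10% fat. In C57BL/6J females Pyy was at 1908, 1377, 1426 and 1694 CPM on 44% fat and at 1068, 1411, 964 and 1317 CPM on 10% fat. The males lowest in Ppy on each diet were also lowest in Pyy.

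**Figure D1:**
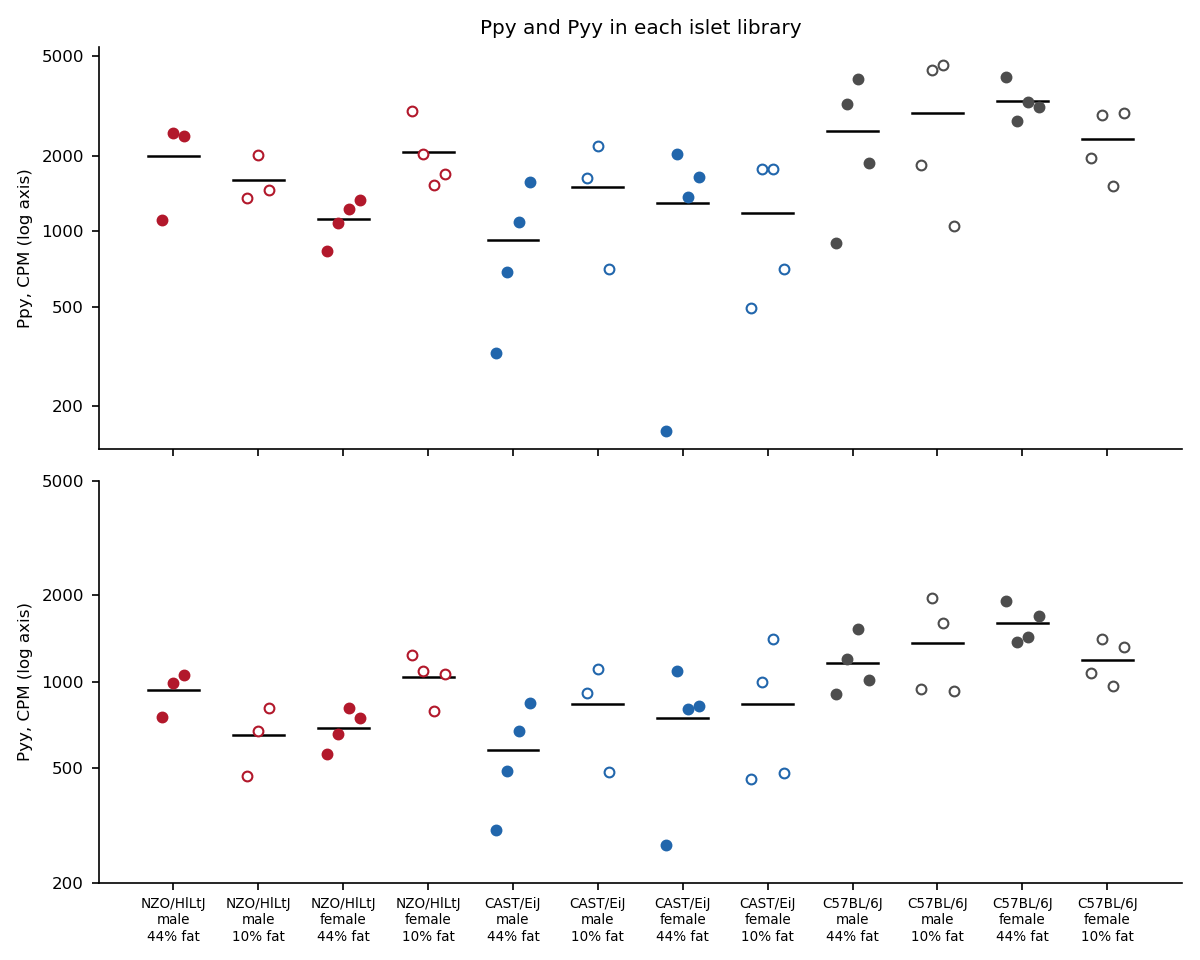
CPM of Ppy (top) and Pyy (bottom) on log axes in each of 45 islet libraries, with 1 point per library (filled on 44% fat, open on 10% fat) and a line at the group mean. C57BL/6J libraries reach 4607 CPM of Ppy and 1955 CPM of Pyy, and the lowest points, 159 and 270.3 CPM, are from a CAST/EiJ female on 44% fat.

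From low to high group means, Ppy ran from 920.3 ± 538 CPM in CAST/EiJ males on 44% fat, through 1120.3 ± 218 in NZO/HlLtJ females on 44% fat, 1185 ± 681 in CAST/EiJ females on 10% fat, 1301 ± 808 in CAST/EiJ females on 44% fat and 1511 ± 752 in CAST/EiJ males on 10% fat (SD). NZO/HlLtJ males on 10% fat (1611 ± 354), males on 44% fat (1993 ± 764) and females on 10% fat (2070.1 ± 667) came next. The 4 C57BL/6J groups stood above all others, with 2336 ± 715 in females on 10% fat, 2513 ± 1398 in males on 44% fat, 2978 ± 1796 in males on 10% fat and 3332 ± 587 in females on 44% fat. No gap between neighbours in this order exceeded the larger SD of the 2 groups; the widest was 0.50 of it. Pyy had the same extremes, 577 ± 231 CPM in CAST/EiJ males on 44% fat and 1601 ± 247 CPM in C57BL/6J females on 44% fat. Its 4 C57BL/6J groups, at 1162 to 1601 CPM, again stood above the other 8, at 577 to 1041 CPM, and no neighbour gap exceeded 0.59 of the larger SD. Around the group means on the log2 scale, Ppy spread with an SD of 0.43 in NZO/HlLtJ, 1.19 in CAST/EiJ and 0.75 in C57BL/6J, and Pyy with 0.29, 0.75 and 0.36.

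As the mean over the sexes, both genes were lower in NZO/HlLtJ and in CAST/EiJ than in C57BL/6J islets on 44% fat. Ppy in CAST/EiJ had 0.378 times the C57BL/6J level (log2 difference −1.40 ± 0.39 SE, adjusted p = 0.00256, edgeR quasi-likelihood F test, mean over the sexes), with library medians of 1229 and 3171 CPM and overlapping ranges of 159 to 2028 and 899.6 to 4151 CPM. Pyy in CAST/EiJ had 0.482 times the C57BL/6J level (−1.05 ± 0.24, adjusted p = 0.000319), with medians of 739 and 1401 CPM. In NZO/HlLtJ, Ppy had 0.516 times the C57BL/6J level (−0.95 ± 0.40, adjusted p = 0.0350) and Pyy 0.589 times (−0.76 ± 0.25, adjusted p = 0.00725). Group means of Ppy in NZO/HlLtJ and C57BL/6J were 1993 and 2513 CPM in males, and 1120 and 3332 CPM in females. Those of Pyy were 932 and 1162 CPM in males, and 692 and 1601 CPM in females. CAST/EiJ males and females had 920 and 1301 CPM of Ppy and 577 and 747 CPM of Pyy. Strain differences were not tested within a sex. Of all genes tested, 50.5% were called between CAST/EiJ and C57BL/6J on 44% fat and 67.8% between NZO/HlLtJ and C57BL/6J, so the pair's calls stand among many. The sources used here do not say to which genome the reads of the NZO/HlLtJ and CAST/EiJ libraries were aligned, and the part of alignment in the strain differences was not tested. Between NZO/HlLtJ and CAST/EiJ on 44% fat, where 70.9% of genes were called, neither Ppy (0.45 ± 0.39, adjusted p = 0.306) nor Pyy (0.29 ± 0.24, adjusted p = 0.290) passed. These are bulk samples, in which fewer gamma cells and less RNA per cell cannot be told apart.

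On 10% fat, as the mean over the sexes, both genes were lower in CAST/EiJ and Pyy was lower in NZO/HlLtJ than in C57BL/6J. Ppy in CAST/EiJ had 0.507 times the C57BL/6J level (−0.98 ± 0.40, adjusted p = 0.0425) and Pyy 0.657 times (−0.61 ± 0.25, adjusted p = 0.0415), where 48% of genes were called. In NZO/HlLtJ, Pyy had 0.648 times the C57BL/6J level (−0.63 ± 0.25, adjusted p = 0.0388), while Ppy did not pass (−0.53 ± 0.40, adjusted p = 0.286), where 43.8% of genes were called. Group means of Pyy in NZO/HlLtJ and C57BL/6J on 10% fat were 652 and 1358 CPM in males, and 1041 and 1190 CPM in females. The wider gap was thus in males on 10% fat and in females on 44% fat. Between NZO/HlLtJ and CAST/EiJ, where 54.8% were called, Ppy (0.45 ± 0.41, adjusted p = 0.365) and Pyy (−0.02 ± 0.25, adjusted p = 0.957) did not pass.

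Within number series, CAST/EiJ was lower than C57BL/6J for both genes in all 4 shared groups of sex and diet in each series. The mean log2 differences in series 76, 80 and 89 were −2.08, −1.0003 and −1.19 for Ppy and −1.42, −0.67 and −0.90 for Pyy. NZO/HlLtJ minus C57BL/6J was −0.48, −0.39 and −0.82 for Ppy and −0.70, −0.29 and −0.93 for Pyy; in series 76, 2 of 4 shared groups were lower for Ppy and 3 of 4 for Pyy. The number series itself, tested as a factor beside the groups, called 8.08% of genes and neither member (Ppy adjusted p = 0.180, Pyy adjusted p = 0.144). Libraries of series 76 deviated from their group means by −0.50 for Ppy and −0.29 for Pyy on average on the log2 scale, and by −1.15 and −0.65 in CAST/EiJ. With the series as a factor in the edgeR fit, the difference of Pyy between NZO/HlLtJ and C57BL/6J on 10% fat no longer passed (−0.54, adjusted p = 0.0591).

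Leaving out 1 library could end each 10% fat call and that of Ppy in NZO/HlLtJ on 44% fat, whereas Pyy in NZO/HlLtJ and both genes in CAST/EiJ on 44% fat kept their calls when each library was left out in turn. Without the 5 libraries with transcripts of another strain, the 44% fat differences from C57BL/6J were −1.41 for Ppy (adjusted p = 0.0282) and −1.03 for Pyy (adjusted p = 0.00949) in CAST/EiJ, and −1.07 (adjusted p = 0.0231) and −0.85 (adjusted p = 0.00534) in NZO/HlLtJ. Ppy in NZO/HlLtJ on 44% fat lost its call without NZO/HlLtJ male 1 (adjusted p = 0.0991) or female 1 (0.0606), or without C57BL/6J male 2 (0.0605), male 3 (0.0891) or female 1 (0.0581) of that diet. It also missed the threshold by limma on the deposited variance-stabilised values (−0.88, adjusted p = 0.0759). Pyy in NZO/HlLtJ on 10% fat lost its call without NZO/HlLtJ male 1 (0.101) or 2 (0.0536), female 2 (0.0502), 3 (0.0716) or 4 (0.0517), or without C57BL/6J male 2 (0.10002) or 3 (0.0686) or female 2 (0.0694) or 4 (0.0556). Ppy in CAST/EiJ on 10% fat lost its call without CAST/EiJ male 1 (0.0644) or 3 (0.123), female 1 (0.0858) or 4 (0.0741), or without C57BL/6J male 2 (0.0887) or 3 (0.0960) or female 2 (0.0705) or 4 (0.0667). Pyy in CAST/EiJ on 10% fat lost its call without the same libraries, at adjusted p = 0.0543, 0.141, 0.0936, 0.0831, 0.108, 0.0733, 0.0736 and 0.0582 in that order. Scaling to library totals also ended the 10% fat calls, at adjusted p = 0.112 for Pyy in NZO/HlLtJ and 0.0883 and 0.105 for Ppy and Pyy in CAST/EiJ.

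**Figure D2:**
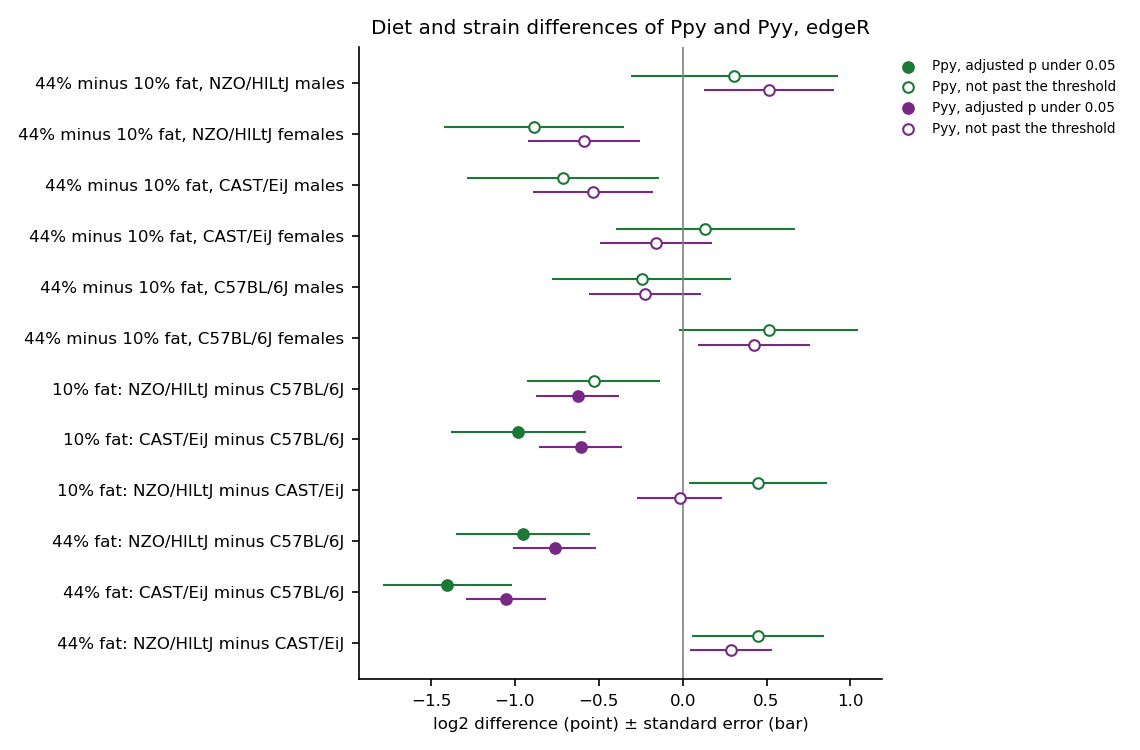
Log2 difference (point) ± standard error (bar) of Ppy and Pyy by edgeR for diet within strain and sex (44% minus 10% fat) and for strain pairs on each diet; filled points are past an adjusted p of 0.05. No diet difference is filled, and the filled points are all differences from C57BL/6J, between −1.40 and −0.61.

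Neither gene passed between the diets in any strain or sex, by edgeR or by DESeq2. In the main edgeR fit no unadjusted p in a single strain and sex was under 0.05. For NZO/HlLtJ females, 8 alternative settings gave −1.11 to −0.85 for Ppy and −0.80 to −0.58 for Pyy. Their adjusted p went down to 0.0575 for Ppy and 0.0700 for Pyy. In NZO/HlLtJ males the 44% minus 10% fat difference was 0.31 ± 0.62 for Ppy (adjusted p = 0.750) and 0.51 ± 0.39 for Pyy (adjusted p = 0.330), where 32.1% of genes were called. In NZO/HlLtJ females it was −0.89 ± 0.54 for Ppy (adjusted p = 0.267) and −0.59 ± 0.33 for Pyy (adjusted p = 0.228), where 17.2% of genes were called. The NZO/HlLtJ female groups did not overlap in Ppy and the difference was not called. The share of all genes without overlap between these groups is not given here. As the mean over the sexes in NZO/HlLtJ, with 35.8% of genes called, Ppy differed by −0.29 ± 0.41 (adjusted p = 0.627) and Pyy by −0.04 ± 0.25 (adjusted p = 0.933). The 95% interval of the Ppy difference was −0.93 to 1.54 in NZO/HlLtJ males and −1.96 to 0.19 in NZO/HlLtJ females.

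In CAST/EiJ and C57BL/6J few genes of any kind were called between the diets. In CAST/EiJ males 0.00985% of genes were called, with Ppy at −0.71 ± 0.57 and Pyy at −0.53 ± 0.36, and in CAST/EiJ females 0.256%, with Ppy at 0.13 ± 0.53 and Pyy at −0.16 ± 0.33. Over both sexes 0.0443% were called in CAST/EiJ, with Ppy at −0.29 ± 0.39 (adjusted p = 0.913) and Pyy at −0.35 ± 0.24 (adjusted p = 0.793). In C57BL/6J males 0.0443% of genes were called, with Ppy at −0.24 ± 0.53 and Pyy at −0.23 ± 0.33. In C57BL/6J females 0% were called by edgeR, with Ppy at 0.51 ± 0.54 and Pyy at 0.43 ± 0.33; 658 genes had an unadjusted p under 0.05 and DESeq2 called 6. Over both sexes 0.0246% were called in C57BL/6J, with Ppy at 0.13 ± 0.38 and Pyy at 0.10 ± 0.24. Adjusted p was 0.932 or more for both genes in each sex of CAST/EiJ and C57BL/6J.

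The tests of whether the diet difference itself varied with sex or strain did not call the pair. Between the sexes in NZO/HlLtJ, male minus female diet differences were 1.19 ± 0.82 for Ppy (adjusted p = 0.382) and 1.10 ± 0.51 for Pyy (adjusted p = 0.166), where 10% of genes were called. In series 76, the only one with both diets in both sexes of NZO/HlLtJ, the 44% minus 10% difference was −0.29 for Ppy and 0.67 for Pyy in males (1 library each) and −1.39 and −0.93 in females (2 each). Of the NZO/HlLtJ groups, series 80 held males on 44% fat with females on 10% fat, and series 89 held the others, so there the interaction and the series cannot be told apart. In CAST/EiJ the interaction was −0.85 ± 0.78 for Ppy and −0.37 ± 0.49 for Pyy, with 0.0295% of genes called. In C57BL/6J it was −0.76 ± 0.76 and −0.65 ± 0.47, with 0% of genes called by edgeR, 805 at an unadjusted p under 0.05 and 8 called by DESeq2.

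Between strains, the diet difference in NZO/HlLtJ minus that in C57BL/6J was −0.42 ± 0.56 for Ppy and −0.14 ± 0.35 for Pyy, with 18.8% of genes called. For CAST/EiJ minus C57BL/6J it was −0.42 ± 0.55 and −0.45 ± 0.34, with 0.0197% called, and for NZO/HlLtJ minus CAST/EiJ 0.00 ± 0.57 and 0.31 ± 0.35, with 25.7% called. Neither gene passed between the sexes. Male minus female differences were 0.23 ± 0.41 for Ppy and −0.12 ± 0.26 for Pyy in NZO/HlLtJ (30.7% of genes called), −0.07 ± 0.39 and −0.19 ± 0.25 in CAST/EiJ (0.901% called), and −0.03 ± 0.38 and −0.14 ± 0.24 in C57BL/6J (0.389% called), with adjusted p of 0.712 or more.

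The ratio of Ppy to Pyy counts within a library depends on neither depth nor scaling. It ran from 0.590 to 2.99 with a median of 1.85, and Ppy had the higher count in 43 of 45 libraries; the exceptions were the first CAST/EiJ female on 44% fat (0.590) and the first C57BL/6J male on 44% fat (0.990). Corrected for transcript length the ratio was 0.655 to 3.32, with a median of 2.05. Median count ratios were 1.83 in NZO/HlLtJ, 1.62 in CAST/EiJ and 2.04 in C57BL/6J. None of 9 comparisons of the log2 ratio passed an exact two-sided permutation test within sex with adjustment over the 9. The smallest p was for NZO/HlLtJ minus CAST/EiJ on 10% fat, a difference of 0.52 (0.68 to 1.58 in NZO/HlLtJ and 0.10 to 0.99 in CAST/EiJ; exact p = 0.0114, adjusted p = 0.103); without the third NZO/HlLtJ male on 10% fat it was 0.63 with an adjusted p of 0.0257. The other 8 had adjusted p between 0.286 and 0.822, diet in NZO/HlLtJ (−0.28) and CAST/EiJ minus C57BL/6J on 44% fat (−0.48, exact p = 0.0967) among them.

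Libraries with more Ppy than their group mean also had more Pyy, in each strain. The correlation of the deviations from group means, on log2 CPM, was r = 0.97 in CAST/EiJ (rho = 0.92, n = 15, permutation p = 4.0e-05, adjusted p = 6.0e-04 over 15 relations), and r = 0.96 without the 2 libraries farthest from the median. In C57BL/6J it was r = 0.90 (rho = 0.92, n = 16, permutation p = 6.5e-04, adjusted p = 0.00487), and 0.91 without the 2 farthest. In NZO/HlLtJ it was r = 0.72 (rho = 0.71, n = 14, permutation p = 0.00790, adjusted p = 0.0395; 0.0584 for rho), and 0.65 without the 2 farthest; this call was lost without the libraries with transcripts of another strain (r = 0.70, adjusted p = 0.117) and with library totals (r = 0.66, adjusted p = 0.0872). Within number series the correlation was 0.93, 0.93 and 0.86, and with group and series removed together 0.69 in NZO/HlLtJ, 0.95 in CAST/EiJ and 0.89 in C57BL/6J. Both values of a library share its scaling factor and its cell composition.

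The hormones of alpha and delta cells were set against the pair in the same way. For Ppy with Gcg, r was −0.16 in NZO/HlLtJ, 0.01 in CAST/EiJ and 0.00 in C57BL/6J, and with Sst −0.40, 0.15 and 0.33 in those strains. For Pyy with Gcg, r was 0.35, −0.05 and 0.30, and with Sst −0.17, 0.29 and 0.64. None of these 12 relations passed (adjusted permutation p from 0.106 to 0.999), and the highest, Pyy with Sst in C57BL/6J, had rho = 0.54 and r = 0.42 without the 2 farthest libraries. It passed with library totals in place of TMM (r = 0.75, adjusted p = 0.0183).

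**Figure D3:**
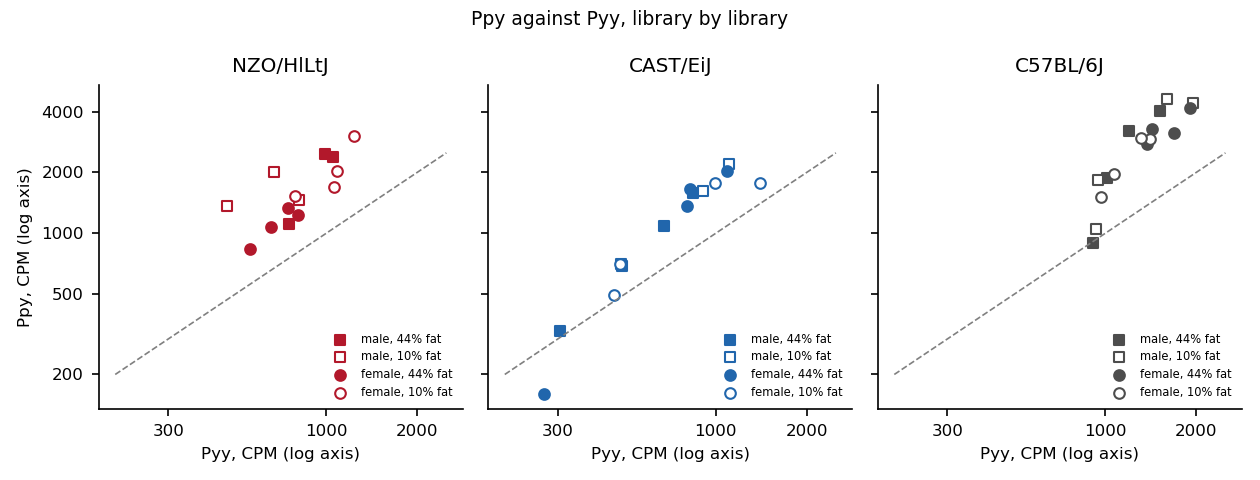
CPM of Ppy against CPM of Pyy on log axes, 1 point per library, by strain, sex and diet; the dashed line marks equal CPM. Libraries with more Ppy have more Pyy in each strain, and the point farthest below it, a CAST/EiJ female on 44% fat, has 159 CPM of Ppy and 270.3 CPM of Pyy.

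By likeness over 45 libraries (Pearson r of deviations of log2 CPM from the 12 group means, among 14101 genes with a mean of at least 1 CPM), each gene of the pair was the other's closest match, at r = 0.92. Next for both was Tspan8, which encodes a tetraspanin of the cell surface (r = 0.86 with Ppy and 0.81 with Pyy), and then Lrrtm1, a leucine-rich repeat membrane protein known from synapses (0.75 and 0.71). Ppy was followed further by Ccng2, which encodes cyclin G2 (0.69), and Bmpr1b, a BMP receptor (0.67). Gpx7, of the glutathione peroxidase family, was among the 5 closest to Pyy (0.65). Ghrl, the ghrelin gene of epsilon cells, was in place 13 for Ppy (0.62) and place 7 for Pyy (0.63). Gcg (−0.02 and 0.14) was in places 7793 and 3486 of 14100 other genes, and Sst (0.14 and 0.30) in places 3517 and 936. Npy (0.20 and 0.29) was in places 2210 and 1041. By strain, Npy had r with Pyy of 0.73 in NZO/HlLtJ, 0.12 in CAST/EiJ and 0.37 in C57BL/6J. In NZO/HlLtJ, Ppy had r with Pyy of 0.72, no higher than that of Npy. Over the 12 group means the 5 closest were Nhs (0.95), Bend5 (0.95), Tekt2 (0.94), Pyy (0.93) and Tspan8 (0.93) for Ppy, and R74862 (0.94), Cacna1h (0.94), Upp1 (0.94), Ppy (0.93) and Nedd4l (0.93) for Pyy.

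By strain, Tspan8 had r with Ppy of 0.79 in NZO/HlLtJ, 0.89 in CAST/EiJ and 0.92 in C57BL/6J. Pyy had r with Ppy of 0.72, 0.97 and 0.90 in those strains. Pyy was therefore not the closest match of Ppy within NZO/HlLtJ or within C57BL/6J. Tspan8 and Lrrtm1 were picked by r over these same libraries, so their values by strain are not a separate test. Lrrtm1 had r with Ppy of 0.44, 0.82 and 0.79 in those strains, and Ghrl of 0.69, 0.82 and 0.45. The value of Ghrl in NZO/HlLtJ rests on levels of 0.0110 to 0.436 CPM, close to 0. Tspan8 also had strain differences of the same sign as the pair. It ran from 9.23 to 43.5 CPM in NZO/HlLtJ, 5.06 to 15.4 in CAST/EiJ and 19.4 to 44.2 in C57BL/6J, and was lower than in C57BL/6J in CAST/EiJ (−1.82 on 44% fat, adjusted p = 5.82e-09; −1.66 on 10% fat) and in NZO/HlLtJ (−0.83 on 44% fat, adjusted p = 0.00122; −1.15 on 10% fat). Tspan8 was higher on 44% than on 10% fat in NZO/HlLtJ males (1.10 ± 0.34, adjusted p = 0.0137). Tspan8 lost this call without male 3 on 44% fat, a library with transcripts of CAST/EiJ (0.75, adjusted p = 0.160), or without male 1 on 10% fat (0.99, adjusted p = 0.0698). Lrrtm1 had no strain call, with differences from C57BL/6J of 0.05 to 0.21.

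**Figure D4:**
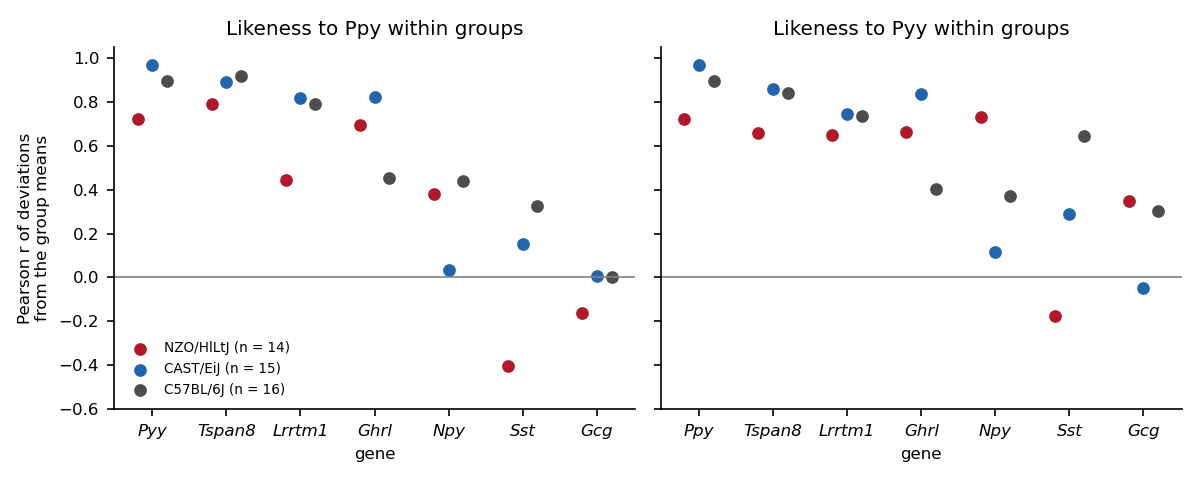
Pearson r between the deviations of a gene and those of Ppy (left) or Pyy (right) from the group means, with 1 point per strain (14, 15 and 16 libraries). The other gene of the pair and Tspan8 lie between 0.66 and 0.97 in every strain, whereas Gcg lies between −0.16 and 0.35. Npy lies between 0.03 and 0.73, the highest with Pyy in NZO/HlLtJ.

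Npy, the remaining family member and chiefly a neuronal peptide, had a strain order unlike that of the pair. It was at 0.120 to 4.39 CPM in NZO/HlLtJ, 107 to 331 CPM in CAST/EiJ and 4.17 to 14.2 CPM in C57BL/6J, and the CAST/EiJ libraries lay above all others. Npy in CAST/EiJ was higher than in C57BL/6J by 4.73 ± 0.34 on 44% fat (adjusted p = 5.51e-14) and 4.60 ± 0.34 on 10% fat (adjusted p = 1.40e-13). In NZO/HlLtJ the difference was −1.999 ± 0.33 on 44% fat (adjusted p = 3.23e-06) and −2.26 ± 0.34 on 10% fat (adjusted p = 1.33e-06). Its diet difference varied with sex in NZO/HlLtJ (male minus female 2.17 ± 0.68, adjusted p = 0.0370), with 1.80 to 4.39 CPM on 44% fat and 0.120 to 1.88 CPM on 10% fat in males, and 0.560 to 2.11 CPM on 44% fat and 1.77 to 3.80 CPM on 10% fat in females. Neither diet difference of Npy passed within a sex. The call of the difference between the sexes rested on single libraries. Male 3 on 44% fat, the NZO/HlLtJ library with the most Npy, held CAST/EiJ transcripts at 2.006% of their CAST/EiJ level, and the other 44% fat males had 1.80 and 2.36 CPM of Npy. Without it the Npy difference was 1.72 ± 0.71 (adjusted p = 0.210), and without the 5 libraries with transcripts of another strain 1.72 ± 0.75 (adjusted p = 0.264). The Npy call was also lost without male 1 on 10% fat (adjusted p = 0.0677), female 1 (0.0527) or 2 (0.0879) on 44% fat, or female 1 (0.0528) or 4 (0.0717) on 10% fat. The 4 strain differences of Npy from C57BL/6J remained called without the 5 libraries.

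Of the receptors listed, 2 of 5 were tested. Npy1r, a receptor of neuropeptide Y and peptide YY, had 0.674 to 8.93 CPM in NZO/HlLtJ, 0.488 to 2.19 CPM in CAST/EiJ and 0.967 to 1.67 CPM in C57BL/6J. It was higher in NZO/HlLtJ than in C57BL/6J on 44% fat (1.49 ± 0.24, adjusted p = 1.69e-06) and on 10% fat (0.60 ± 0.25, adjusted p = 0.0467). It was also higher on 44% than on 10% fat in NZO/HlLtJ males (1.25 ± 0.38, adjusted p = 0.0104). This diet call of Npy1r was lost without male 3 on 44% fat (0.63, adjusted p = 0.280) or male 2 on 10% fat (1.03, adjusted p = 0.0756). The 10% fat strain call of Npy1r was lost without 1 of 5 NZO/HlLtJ libraries (adjusted p from 0.0510 to 0.121). Npy4r, the receptor that prefers pancreatic polypeptide, was hardly detected, at no more than 0.338 CPM in any library and at 0 in 7 of 14 NZO/HlLtJ libraries. Its difference of NZO/HlLtJ from C57BL/6J was called on both diets (−2.76 ± 0.82 on 44% fat, adjusted p = 0.00297), at levels of a few reads, and the 10% fat call of Npy4r was lost without 1 of 5 NZO/HlLtJ libraries (adjusted p from 0.0602 to 0.0950). Neither receptor was called between CAST/EiJ and C57BL/6J. Npy2r, Npy5r and Npy6r are not analysed here.

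**Figure D5:**
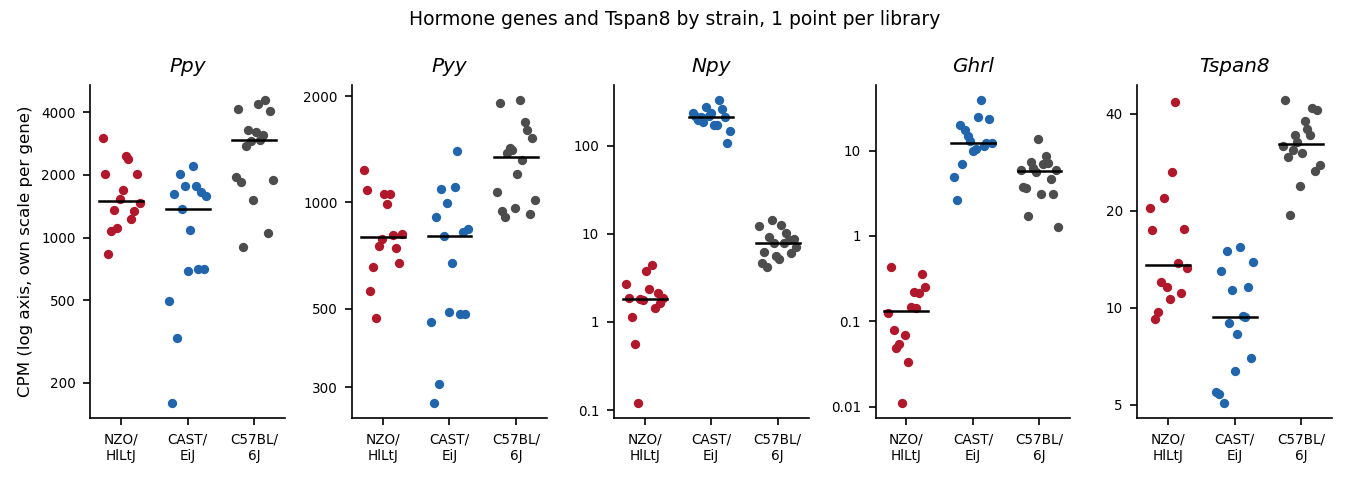
CPM on log axes, with a scale of its own for each gene, of Ppy, Pyy, Npy, Ghrl and Tspan8, 1 point per library and a line at the strain median. C57BL/6J has the highest medians of Ppy (2935 CPM), Pyy (1347 CPM) and Tspan8 (32.2 CPM), and CAST/EiJ those of Npy (209 CPM) and Ghrl (12.4 CPM).

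The next genes encode enzymes and helpers that cut, trim, amidate or inactivate such peptides. Beside the counts for this and the following lists stand the shares of all genes called in either direction against C57BL/6J on 44% fat, 67.8% for NZO/HlLtJ and 50.5% for CAST/EiJ, and a count near that share is not a result about the list. Of 9 such genes, 6 were higher and 0 lower in NZO/HlLtJ than in C57BL/6J on 44% fat (median difference 0.38, against −0.05 over all genes; with library totals 4 and 0, against a median of −0.23 over all genes), which is close to the 67.8% of all genes. In CAST/EiJ, against 50.5% of all genes, 3 were higher and 6 lower (median −0.36, against −0.01 over all genes; 3 and 4 with library totals). Dpp4, the dipeptidyl peptidase that trims the start of peptide YY, was at 92.8 to 221 CPM in NZO/HlLtJ, 38.6 to 71.8 in CAST/EiJ and 76.6 to 117 in C57BL/6J. It was higher in NZO/HlLtJ (0.64 on 44% fat, 0.63 on 10% fat) and lower in CAST/EiJ (−0.81 on 44% fat, −0.78 on 10% fat) than in C57BL/6J, all called.

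Among the convertases, Pcsk1 was lower in CAST/EiJ than in C57BL/6J (−0.45 on 44% fat, adjusted p = 0.00187; −0.51 on 10% fat), as was Pcsk2 (−0.36 on 44% fat, adjusted p = 0.00297; −0.28 on 10% fat), and neither was called in NZO/HlLtJ. Without the 5 libraries with transcripts of another strain, the 44% fat calls in CAST/EiJ were lost for Pcsk1 (−0.35, adjusted p = 0.0735) and Pcsk2 (−0.28, adjusted p = 0.0609). In NZO/HlLtJ, Pcsk1 fell on 44% fat in males (−0.83 ± 0.20, adjusted p = 0.00130) and rose in females (0.68 ± 0.17, adjusted p = 0.00456). The smallest adjusted p in this list were for Scg5, the chaperone of the convertase encoded by Pcsk2 (1.52 on 44% fat, NZO/HlLtJ minus C57BL/6J), and the peptidases Fap (2.48) and Mme (4.47). Mme is neprilysin and ran from 0.314 to 22.6 CPM in NZO/HlLtJ and from 0.171 to 1.53 CPM in C57BL/6J.

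Markers of connective tissue and immune cells were higher on 44% fat in NZO/HlLtJ islets, with more of them called in males than in females. In NZO/HlLtJ males, where 32.1% of all genes were called for diet, 6 of 6 fibroblast and stellate cell markers, 6 of 6 macrophage markers and 6 of 6 lymphocyte markers were higher on 44% fat (3 of 6 lymphocyte markers with library totals), and 9 of 10 beta cell markers were lower. Summed fibroblast markers were at 1537 to 3332 CPM in males on 44% fat and 239 to 1161 CPM in males on 10% fat. Summed macrophage markers were at 317 to 530.1 CPM and 65.9 to 195 CPM, and summed lymphocyte markers at 12.6 to 46.3 CPM and 2.19 to 4.07 CPM, on 44% and 10% fat. Summed beta cell markers were at 55297 to 113223 CPM in males on 44% fat and 139332 to 187838 CPM in males on 10% fat. In NZO/HlLtJ females, where 17.2% of all genes were called, 6 of 6 macrophage, 2 of 6 fibroblast and 1 of 6 lymphocyte markers were higher on 44% fat (6, 0 and 0 with library totals), and 2 of 10 beta cell markers were higher and 1 lower (0 and 0 with library totals). Against C57BL/6J on 44% fat, 6 of 6 fibroblast, 6 of 6 macrophage and 5 of 6 lymphocyte markers were higher in NZO/HlLtJ, beside 67.8% of all genes called. The part of these cells in the differences of Npy1r, Pcsk1, Fap, Mme and Cck was not tested.

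Of 9 gamma cell markers other than Ppy, 6 were higher and 1 lower in CAST/EiJ than in C57BL/6J on 44% fat (median 0.42; 5 and 1 with library totals), beside 50.5% of all genes called, and 5 higher and 1 lower on 10% fat (median 0.30), beside 48% of all genes. In NZO/HlLtJ 4 were higher and 4 lower on 44% fat (median 0.13, and −0.05 with library totals), beside 67.8% of all genes. Their summed level was 298 to 690.2 CPM in NZO/HlLtJ, 674 to 925 CPM in CAST/EiJ and 464 to 592 CPM in C57BL/6J, so that CAST/EiJ, with the lowest Ppy, had the highest sum. The sum was carried by Slitrk6, Etv1, Meis2, Fxyd6 and Spock1, whereas Aqp3, listed at 0 in 4 C57BL/6J libraries, reached at most 1.07 CPM and Id4 at most 2.10 CPM. Named by the smallest adjusted p, Spock1 was higher in NZO/HlLtJ (1.86 on 10% fat), Meis2 lower in NZO/HlLtJ (−0.999 on 44% fat) and Fxyd6 higher in CAST/EiJ (1.005 on 10% fat). Across libraries, the deviations of the summed markers correlated with those of Ppy at r = 0.30 and of Pyy at r = 0.26 (n = 45, a description). Lists of other cells reached like values, with 0.31 and 0.32 for Schwann cell markers, 0.16 and 0.34 for fibroblast markers and 0.10 and 0.24 for duct markers.

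Of the epsilon markers, Ghrl was close to 0 in NZO/HlLtJ. It was at 0.0110 to 0.436 CPM in NZO/HlLtJ, 2.65 to 39.5 CPM in CAST/EiJ and 1.27 to 13.7 CPM in C57BL/6J, and differed from C57BL/6J on 44% fat by −5.13 in NZO/HlLtJ (adjusted p = 1.24e-09) and 1.33 in CAST/EiJ (adjusted p = 0.00459). Mboat4, which encodes the enzyme that acylates ghrelin, was higher in CAST/EiJ (2.27 on 44% fat). The summed epsilon markers had r = 0.68 with Ppy and 0.69 with Pyy (n = 45). By strain median, CAST/EiJ had the most Ghrl and the least Ppy.

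Of the hormones of other islet cells, Gcg was lower in NZO/HlLtJ than in C57BL/6J (−1.17 on 44% fat, −1.07 on 10% fat, both called) and not called in CAST/EiJ (−0.22 and 0.18). Sst was lower in NZO/HlLtJ (−1.29 and −0.82) and in CAST/EiJ (−0.82 and −0.40), all called. On 44% fat, 3 of 10 alpha markers were higher and 7 lower in NZO/HlLtJ (median −1.10), against 2 higher and 2 lower in CAST/EiJ (−0.14). Of all genes 67.8% were called in NZO/HlLtJ and 50.5% in CAST/EiJ. Of 6 delta markers, 0 were higher and 4 lower in NZO/HlLtJ (median −0.80), and 1 higher and 4 lower in CAST/EiJ (−0.66). Ins1 and Ins2, the insulin genes of beta cells, differed from C57BL/6J by 0.22 and −0.05 in NZO/HlLtJ and 0.47 and 0.06 in CAST/EiJ on 44% fat, and only Ins1 in CAST/EiJ was called (adjusted p = 0.00411).

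Of 14 endocrine transcription factors tested, 0 were higher and 12 lower in NZO/HlLtJ than in C57BL/6J on 44% fat (median −0.86), led by Isl1 (−1.65), Meis2 (−0.999) and Pax6 (−0.95), against 4 higher and 4 lower in CAST/EiJ (−0.04). The shares of all genes called in either direction were 67.8% and 50.5%. Of the gut hormones listed, 5 of 9 were tested, and on 44% fat 2 were higher and 3 lower in NZO/HlLtJ, and 3 higher and 1 lower in CAST/EiJ than in C57BL/6J. The 2 higher in NZO/HlLtJ were Cck and Gast, the genes of cholecystokinin and gastrin. Cck reached 78.7 to 94.7 CPM in NZO/HlLtJ males on 44% fat, against 0.459 to 21.5 CPM on 10% fat, and at most 0.0844 CPM in C57BL/6J libraries.

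For acinar markers, 0 of 12 were called by edgeR in each difference of NZO/HlLtJ and CAST/EiJ from C57BL/6J. An unadjusted p was under 0.05 for 1 of them, in NZO/HlLtJ on 10% fat, where DESeq2 also called 1; for the other differences both counts were 0. The deviations of their sum had r = −0.02 with Ppy and −0.03 with Pyy (n = 45). The deviations of the summed alpha markers had r = −0.02 and 0.16 with Ppy and Pyy, those of the delta markers 0.13 and 0.30 and those of the beta markers 0.04 and 0.10.

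Of 12 genes with any base within 100 kb, 10 were tested, the pair included; Gm11585 and Gm11586 did not pass the filter on low counts. The 8 tested neighbours, Mpp3, Cd300lg, Mpp2, Nags, Tmem101, Lsm12, G6pc3 and Hdac5, had r from −0.36 to 0.33 with Ppy (median −0.04) and from −0.39 to 0.43 with Pyy (median 0.03) over 45 libraries. On 44% fat, 2 were higher and 2 lower in CAST/EiJ than in C57BL/6J, beside 50.5% of all genes called. Mpp3 (−2.57) and Mpp2 (−1.53), which encode membrane-associated scaffold proteins, were lower, and Tmem101 (0.30) and G6pc3 (0.27) higher. In NZO/HlLtJ, where 67.8% of all genes were called, 4 were higher and 2 lower, and those lower were Mpp3 (−0.95) and Hdac5 (−0.89), a histone deacetylase gene.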

How the data were processed

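Estimated counts per gene were deposited by the authors, not normalised, together with their variance-stabilised matrix, on a log2 scale. The submitters' processing notes name GRCm38 and DESeq2 without a role; the sources used here do not give the aligner, counter or strand handling. Of the values, 23.6% were not whole, and all were rounded. Genes were kept by filterByExpr over the 12 groups (20306 of 22904), scaled by TMM (factors 0.4856 to 1.178) and tested by robust edgeR quasi-likelihood F tests (edgeR 4.0.16, R 4.3.3) on contrasts of the 12 group means in 24 comparisons, with Benjamini-Hochberg adjustment over all genes and a threshold of 0.05. The fit was tested on simulated data. Ratios were compared by exact permutation within sex (numpy 2.4.6), correlations by 100000 permutations within group. Log2 CPM used a prior count of 2.

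Alternatives were library totals, RLE, no filter, the number series as a factor, fits within 1 strain, leaving out each library, leaving out the 5 libraries that hold another strain's transcripts, limma 3.58.1 and DESeq2 1.42.0. Named were the pair, Npy, receptors, hormones, Dpp4, Pcsk1 and Pcsk2, up to 3 called genes per list with the smallest adjusted p, the 5 closest by likeness (1 of them is not reported here) and all neighbours within 100 kb; Slitrk6, Etv1, Aqp3 and Id4, were chosen after their values were seen. Members and lists were chosen with earlier results of these data known. The within-series values, the test of the series and the refits of Npy, Npy1r, Npy4r, Tspan8, Pcsk1, Pcsk2 and Ghrl without libraries were added after seeing the data. Replicate numbers follow accession order and pair nothing.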

Additional observations from a re-analysis of the deposited data

How the results depend on the processing

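The pair's edgeR results kept direction and call in 346 of 366 alternatives other than leaving out each library in turn. Leaving out the 5 libraries with transcripts of another strain is among the 366. Most of the 48 results were not called in the main fit, so most of these only stayed uncalled. The 6 alternatives that ended a call all concern strain differences from C57BL/6J. Causes were not tested for the changes below, most of which concern values near 0. With library totals, Pyy was 0.0048 for diet in CAST/EiJ females and Ppy −0.20 for diet by strain (NZO/HlLtJ minus CAST/EiJ), 0.027 for sex in CAST/EiJ and 0.079 for sex in C57BL/6J. The 10% fat differences from C57BL/6J lost their calls there (Pyy −0.59 in NZO/HlLtJ, Ppy −0.94 and Pyy −0.58 in CAST/EiJ), r of Ppy with Pyy in NZO/HlLtJ was 0.66, no longer past, that of Pyy with Sst in C57BL/6J 0.75, now past, and that of Pyy with Gcg in CAST/EiJ 0.41. Diet for Pyy in NZO/HlLtJ over the sexes was 0.0016 with RLE, 0.0016 with DESeq2 and 0.013 with limma. With no filter, Ppy for diet by strain (NZO/HlLtJ minus CAST/EiJ) was −0.0030. With the number series, Pyy on 10% fat was −0.54 for NZO/HlLtJ minus C57BL/6J, no longer past, and 0.045 for NZO/HlLtJ minus CAST/EiJ, and Ppy for sex in CAST/EiJ 0.042. Without the 5 libraries, Ppy for diet by strain was −0.11, the diet difference of the log2 ratio in CAST/EiJ 0.032, r of Ppy with Pyy in NZO/HlLtJ 0.70, no longer past, and r of Ppy with Gcg −0.40 in CAST/EiJ and −0.035 in C57BL/6J. With limma on the variance-stabilised values, Ppy was −0.16 for diet in CAST/EiJ females, 0.089 for sex in CAST/EiJ, and, no longer past, −1.01 for CAST/EiJ minus C57BL/6J on 10% fat and −0.88 for NZO/HlLtJ minus C57BL/6J on 44% fat; Pyy for NZO/HlLtJ minus CAST/EiJ on 10% fat was 0.063, and r of Ppy with Gcg in CAST/EiJ −0.0071. Leaving out each library gave these ranges. For diet they were −0.031 to 0.28 for Ppy in C57BL/6J over the sexes, −0.57 to 0.046 for Ppy and −0.38 to 0.0035 for Pyy in C57BL/6J males, −0.16 to 0.50 for Ppy and −0.40 to 0.21 for Pyy in CAST/EiJ females, and −0.13 to 0.057 for Pyy in NZO/HlLtJ over the sexes. For diet by strain (NZO/HlLtJ minus CAST/EiJ) Ppy ran from −0.19 to 0.20. For sex Ppy ran from −0.27 to 0.10 in CAST/EiJ and −0.19 to 0.11 in C57BL/6J. On 10% fat, Pyy ran from −0.72 to −0.51 for NZO/HlLtJ minus C57BL/6J, −0.79 to −0.47 for CAST/EiJ minus C57BL/6J and −0.16 to 0.17 for NZO/HlLtJ minus CAST/EiJ, and Ppy from −1.17 to −0.81 for CAST/EiJ minus C57BL/6J. On 44% fat Ppy ran from −1.09 to −0.79 for NZO/HlLtJ minus C57BL/6J. The log2 ratio ran from −0.087 to 0.20 for diet in C57BL/6J, −0.20 to 0.095 for diet in CAST/EiJ and 0.45 to 0.63 for NZO/HlLtJ minus CAST/EiJ on 10% fat. No paired analysis was possible because replicate numbers only follow accession order. Depth did not limit the pair, whose lowest count was 14627, but Npy4r rests on few reads.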
